A study of Rattus norvegicus with 18 samples.

Results

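The sodium-potassium pump of the kidney was described through 6 of its genes, the beta subunits Atp1b1, Atp1b2 and Atp1b3 and the FXYD regulators Fxyd1, Fxyd2 and Fxyd4. They were taken as every probe set, the set of short probes that reads a transcript, whose platform annotation gives a single gene symbol that is in that list. This gave 16 probe sets of 26202 that were not controls, and all 6 genes were on the arrays, of 10969 genes with a single symbol there. Of the 16, 13 had a mean signal above the filter on dim probe sets and were tested, of 15721 tested in all. The catalytic alpha subunit genes other than Atp1a4 were not analysed here.

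Kidney RNA came from Dahl Salt-sensitive (S) rats, an inbred strain that becomes hypertensive on a salt-rich diet, and from a congenic strain, in which part of chromosome 9 of the salt-resistant R rat replaces that of the S rat on the genetic background of S. Per the labels the name of this congenic strain ends in (9)x3A, and the exchanged piece contains a quantitative trait locus for blood pressure. There were 3 samples of total RNA per strain, all measured on each of 3 array types, A, B and C. The sources used here give no diet, age, sex or treatment, and no label says that samples of a strain were separate animals, so the p-values reflect no more than how these 3 samples per strain vary, which could be technical variation. Whole kidney was used, so fewer cells of a type and less RNA per cell cannot be told apart.

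The sodium-potassium pump sits in the basolateral membrane of tubule cells, where it exports sodium and imports potassium and thereby sets the gradient that drives sodium reabsorption along the nephron. A catalytic alpha subunit does the transport, and a glycosylated beta subunit is needed to fold it and bring it to the membrane. The FXYD proteins are small membrane proteins that bind the pump and change its affinity for ions, and each has its own place in the tissue. None of the 6 genes lies on chromosome 9. In the GRCr8 assembly Atp1b1 is on chromosome 13, Atp1b2 on chromosome 10, Atp1b3 and Fxyd2 on chromosome 8, Fxyd1 on chromosome 1 and Fxyd4 on chromosome 4. In its order of protein-coding genes Fxyd2 stands next to Fxyd6, and Fxyd1 lies between Fxyd7 and Lgi4, with Fxyd5 and Fxyd3 close by.

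The samples numbered 1 stood apart from the others in both strains. The ratio of 3 prime to 5 prime signal of the beta-actin control, a measure of how complete the RNA is, was 1.48 in Dahl S sample 1 and 1.51 in congenic sample 1 on type A, and 2.10 to 2.65 in the other 4 samples. The GAPDH ratio on type A was 1.03 and 1.13 in the samples numbered 1 and 1.25 to 1.48 in the rest. Both ratios separated the same samples on types B and C too. The median signal of an array was 34.8 to 45.9 (type A), 60.4 to 78.5 (type B) or 61.1 to 75.6 (type C), highest in the samples numbered 1 on each type. Blood markers, mostly globins, summed to 50949.7 in Dahl S sample 3 and to 8880.7 to 17894.5 in the other 5 samples. Each of these 5 genes was highest in Dahl S sample 3, and in each congenic sample 1 was above Dahl S samples 1 and 2. The congenic mean was lower in 5 of 5, a count that leans on Dahl S sample 3. Among them were Hba-a1 (-0.67) and Hba-a3 (-0.58), and 0 passed the test. The 2 tested glomerular markers, Podxl (+1.08) and Synpo (+0.23), did not pass either. Podxl read 266.1, 277.1 and 55.6 in Dahl S samples 1, 2 and 3 and 289.5 to 365.7 in the congenic samples. Its difference thus leaned on Dahl S sample 3. The strains did not overlap in Podxl, as in 7.08% of all tested probe sets. Kidney markers were present: the proximal tubule transporter Slc34a1 read 10806.5 to 16451.4 over the 6 samples, the thick ascending limb protein Umod 5763.4 to 7455.6 and the collecting duct water channel Aqp2 511.1 to 697.5. The number of arrays limits the precision.

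Across all tested probe sets limma called 0 strain differences at an adjusted p of 0.05 (0% of 15721), and 2.49% had an unadjusted p under 0.05 (391 probe sets, or 600 without congenic sample 1). Among the 13 member probe sets 0 passed at an adjusted p of 0.05 in limma and 0 had an unadjusted p under 0.05. The congenic kidneys had the higher mean in 8 of the 13 and the lower mean in 5, with a median log2 difference of +0.05, against a median of -0.0035 over all tested probe sets. The differences of the members ran from -0.25 to +0.28 log2 units, and 9 of the 13 changed sign with some 1 sample left out. The median 95% interval of a member reached 0.42 log2 units to either side, against 0.68 over all tested probe sets. Among probe sets with a mean signal of 200 or more, the reach was 0.42 for members and 0.46 for all tested. The 3 congenic values lay apart from the 3 Dahl S values in 1 of the 13 (7.69%), where 7.08% of all tested probe sets did so (3.59% with the congenic values above and 3.49% below). The adjusted p in limma was 0.9997 for each of the 13.

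**Figure D1:**
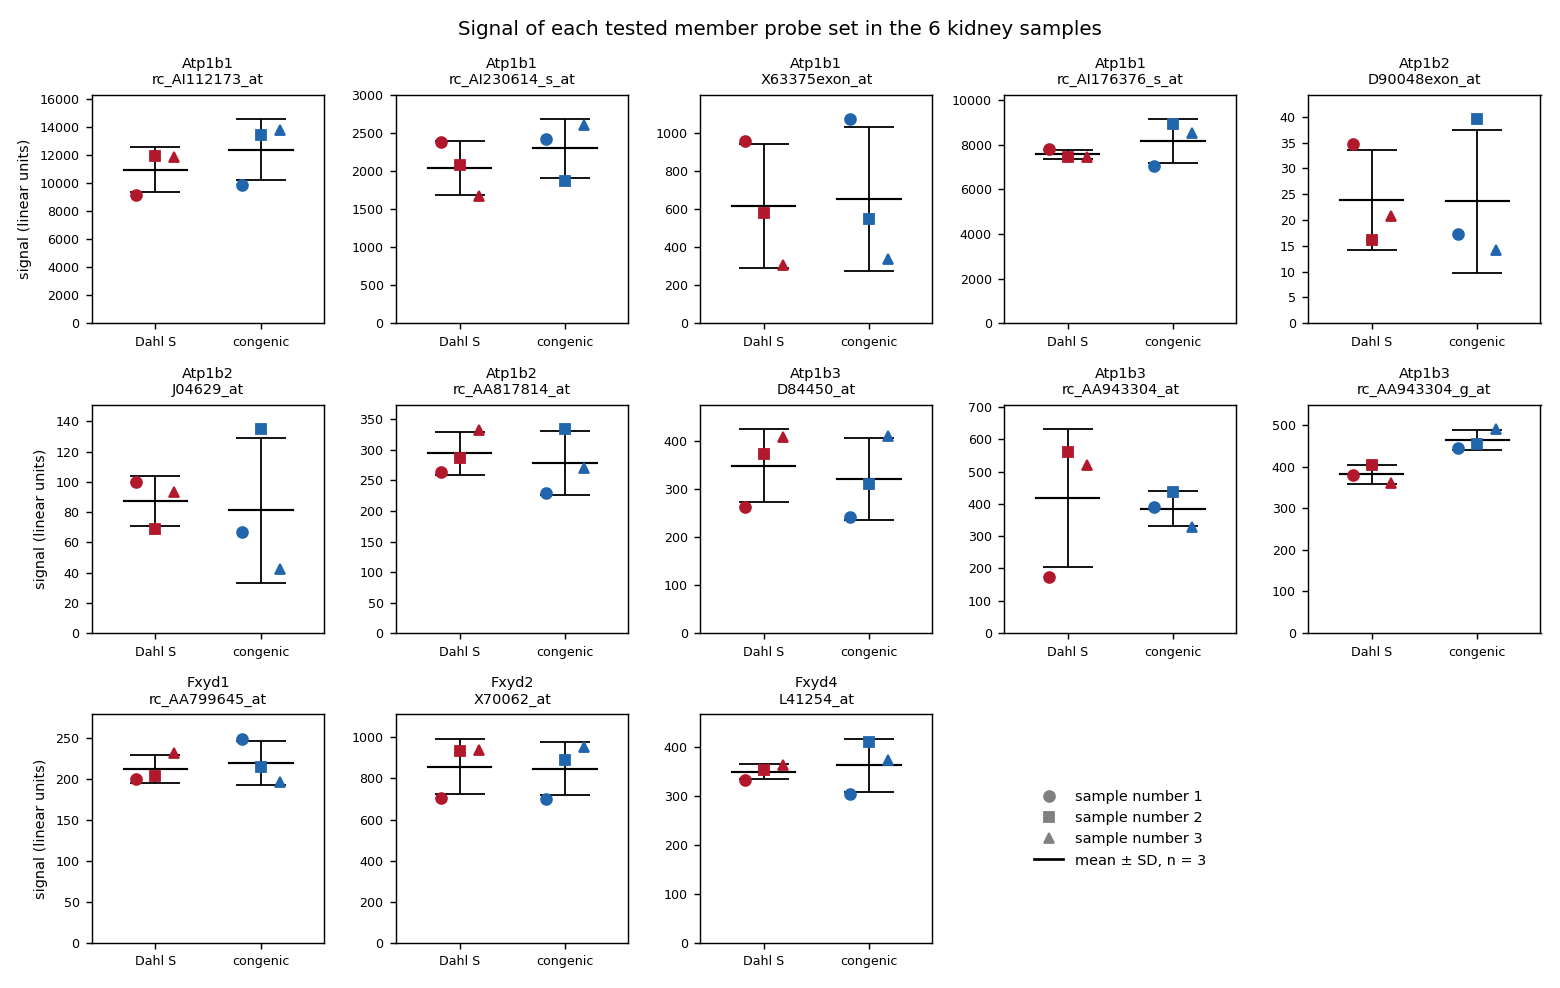
Signal of the 13 tested probe sets on a linear axis from 0 (red, Dahl S; blue, congenic; marker shape, sample number), with the mean and SD of 3 samples per strain. The strains overlap in 12 panels and are apart in rc_AA943304_g_at of Atp1b3, where the congenic values are 445.6 to 490.5 and the Dahl S values 359.8 to 404.5.

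Promoters are shown for 3 members with at least 1 probe set of lower signal in the samples numbered 1 than in the rest in both strains, and that the RefSeq promoter table of GRCr8 holds, each a window that lies mostly upstream of the annotated start. The table held 4 of the 6 genes. Capitals mark matches on either strand to the GC box GGGCGG, bound by Sp factors, the CCAAT box CCAAT, bound by NF-Y, and the TATA box TATAAA. No 2 matches overlapped.
Atp1b2 promoter, chr10:54823659-54823958, minus strand: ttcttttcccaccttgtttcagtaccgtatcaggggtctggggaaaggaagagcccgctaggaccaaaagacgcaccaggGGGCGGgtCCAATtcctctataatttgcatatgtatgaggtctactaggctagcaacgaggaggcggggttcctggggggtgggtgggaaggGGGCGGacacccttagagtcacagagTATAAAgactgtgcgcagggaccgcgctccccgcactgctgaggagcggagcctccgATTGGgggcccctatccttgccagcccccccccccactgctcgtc
Atp1b3 promoter, chr8:105821102-105821401, minus strand: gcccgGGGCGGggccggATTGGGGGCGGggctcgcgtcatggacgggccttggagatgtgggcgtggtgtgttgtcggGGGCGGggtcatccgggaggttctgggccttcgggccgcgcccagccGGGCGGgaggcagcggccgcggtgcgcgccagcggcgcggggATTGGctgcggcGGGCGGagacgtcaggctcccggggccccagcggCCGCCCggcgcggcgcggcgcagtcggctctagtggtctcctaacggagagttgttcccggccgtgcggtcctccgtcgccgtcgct
Fxyd4 promoter, chr4:152785996-152786295, minus strand: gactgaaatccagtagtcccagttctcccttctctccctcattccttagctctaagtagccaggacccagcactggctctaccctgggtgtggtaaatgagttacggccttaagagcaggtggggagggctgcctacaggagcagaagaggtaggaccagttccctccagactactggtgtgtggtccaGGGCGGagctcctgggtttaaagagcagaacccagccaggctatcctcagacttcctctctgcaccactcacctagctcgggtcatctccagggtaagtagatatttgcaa
The Atp1b3 window held 6 GC boxes and 2 CCAAT boxes and no TATAAA, and 77.7% of its bases were G or C, against a median of 51.7% over 33469 promoters. The Atp1b2 window held 2 GC boxes, 2 CCAAT boxes and 1 TATA box. The Fxyd4 window, like that of Fxyd1, held 1 GC box and none of the other motifs. At least 1 GC box was in 33.1% of all promoters of this length, a CCAAT box in 37.5% and a TATA box in 14.2%. The letters AGAACA, the core of a steroid receptor element, were searched on both strands and were in 0 of the 4 windows and in 20.7% of all promoters. These matches describe the letters of the windows, not binding.

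Atp1b1 encodes the beta1 subunit, the usual partner of the catalytic subunit in renal tubules, and 4 probe sets measured it. With rc_AI112173_at on type A the signal was 9101.1, 11887.4 and 11826.5 in Dahl S samples 1, 2 and 3 and 9872.1, 13435.7 and 13773.0 in congenic samples 1, 2 and 3, the order kept for all values given by sample. Congenic samples 2 and 3 were the highest and both samples numbered 1 the lowest, and the strains overlapped. The log2 difference was +0.17 (SE 0.18, 95% interval -0.25 to +0.59, n = 3 per strain, exact permutation p = 0.5), a ratio of 1.13. Within each sample number the congenic signal was the higher, by 0.12, 0.18 and 0.22 log2 units. The numbers were not shown to pair the samples. Under quantile normalization this probe set read -0.0095, so its direction depends on the scaling. Markers of the proximal tubule, the bulk of the kidney cortex, had a higher congenic mean in 9 of 10 genes and summed to 63649.3 to 69993.4 in Dahl S and 65576.3 to 80962.6 in congenic samples. The strains did not overlap in 4 of these 10, against 7.08% of all tested probe sets in either direction (3.59% with the congenic values above). The 4 were Pck1 (+0.31), Kap (+0.24), Cubn (+0.18) and Slc22a6 (+0.20), all with the congenic values above. Of 7 thick limb and distal tubule markers 6 had the higher congenic mean. The strains did not overlap in 2 of the 7, Sostdc1 (+0.295) and Kcnj1 (+0.26), against the same 7.08%. The other tested Kcnj1 probe sets gave +0.15 and -0.08. In both lists 0 genes had an unadjusted p under 0.05 in limma. The part of either cell type in the Atp1b1 and Fxyd2 values was not tested.

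The second Atp1b1 probe set of high signal, rc_AI176376_s_at on type C, read 7798.5, 7463.6 and 7459.6 in Dahl S kidneys and 7055.6, 8927.7 and 8510.3 in congenic kidneys. The Dahl S values lay close together, and congenic sample 1 fell below and congenic samples 2 and 3 above all of them (log2 difference +0.10, SE 0.16, exact permutation p = 0.4). Its spread within strains was smaller than that of all but 7.98% of the tested probe sets on its array type. The probe set rc_AI230614_s_at read 2383.9, 2076.6 and 1671.4 in Dahl S kidneys and 2419.2, 1870 and 2610 in congenic kidneys, +0.17 (SE 0.18), with the difference mainly between the samples numbered 3 (+0.64).

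The fourth Atp1b1 probe set, X63375exon_at on type A, ran opposite to the first by sample number. The signals were 957.2, 581.1 and 308.1 in Dahl S kidneys and 1070.8, 547.3 and 337.9 in congenic kidneys. In both strains sample 1 was highest and sample 3 lowest, and the values of the strains overlapped (+0.07, SE 0.49, exact permutation p = 0.8). The samples numbered 1 were 2.37-fold higher than the rest by this probe set and 0.746-fold by rc_AI112173_at. Of the tested probe sets on type A, 4.82% had a larger rise in the samples numbered 1. The control ratio of beta-actin on type A ran the other way, 1.48 and 1.51 in the samples numbered 1, 2.11 and 2.10 in those numbered 2 and 2.29 and 2.65 in those numbered 3 (Dahl S first), and its part in the result was not tested.

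**Figure D2:**
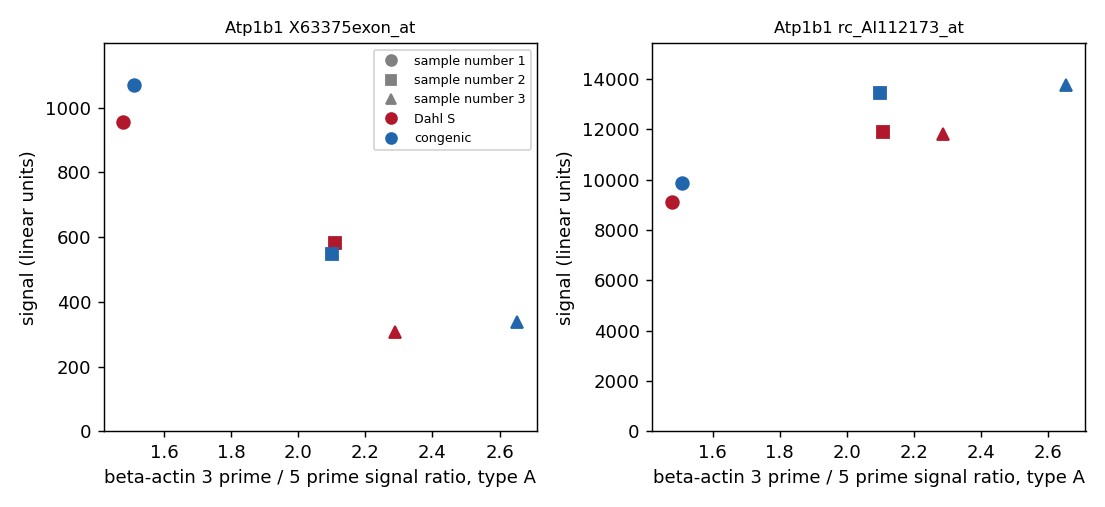
Signal of 2 Atp1b1 probe sets (vertical axis, linear from 0) against the 3 prime to 5 prime ratio of beta-actin on the same type A arrays, 1 point per sample. The samples numbered 1 (circles, ratios 1.48 and 1.51) are highest at 957.2 and 1070.8 in the left panel and lowest at 9101.1 and 9872.1 in the right panel.

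Atp1b2 encodes the beta2 subunit, known from glia as an adhesion molecule. Its brightest probe set, rc_AA817814_at on type C, read 264.2, 286.3 and 332.4 in Dahl S kidneys and 230.2, 334.2 and 271.1 in congenic kidneys. Sample 1 was the lowest of each strain, and the strains overlapped (-0.09, SE 0.19, 95% interval -0.52 to +0.34, exact permutation p = 0.8). On type A J04629_at read 99.7, 68.6 and 93.4 against 66.5, 134.8 and 42.4, so that the congenic samples spanned the Dahl S range on both sides (-0.25, SE 0.43). Its interval, a ratio of 0.427 to 1.66, leaves a difference of either direction possible.

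A further pair of Atp1b2 probe sets came from 1 source sequence and was dim. D90048exon_at read 34.7, 16.1 and 20.8 in Dahl S kidneys and 17.2, 39.5 and 14.1 in congenic kidneys, below the filter level of 21.2 in 4 of the 6 samples, and its difference was -0.09 (SE 0.61). D90048exon_g_at, at 8.4 to 18.1, was under that level in all 6 samples and was not tested. Congenic sample 2 was the highest of the 6 samples in all 4 Atp1b2 probe sets, and congenic sample 3 was the lowest in the 3 on type A. Of the nerve and glia marker list 2 of 6 genes were tested, and their summed signal was 224.7 to 335.4 in Dahl S and 252 to 344.1 in congenic samples, highest in congenic sample 2. They were Syn1 (+0.43) and Mbp (-0.04), and neither passed the test. Syn1 was highest in congenic sample 2 (116.7). Mbp was highest in Dahl S sample 1 (262) and read 227.4 and 225.7 in congenic samples 2 and 3. The part of such cells in the Atp1b2 values was not tested.

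Atp1b3 encodes the beta3 subunit, which is expressed in many tissues. D84450_at on type A read 262.2, 372.4 and 408.2 in Dahl S kidneys and 241.6, 309.5 and 410.2 in congenic kidneys, with sample 1 lowest and sample 3 highest in both strains (-0.13, SE 0.25, exact permutation p = 0.8). On type B the probe set rc_AA943304_g_at read 379.7, 404.5 and 359.8 in Dahl S kidneys and 445.6, 454.3 and 490.5 in congenic kidneys. This was the member probe set whose strains did not overlap, and it had the smallest p of the members: 1.22-fold higher in the congenic kidneys (log2 difference +0.28, SE 0.18, 95% interval -0.12 to +0.68, unadjusted limma p of 0.149, adjusted p = 0.9997). The exact two-sided permutation test gave p = 0.1, the smallest value that 3 samples against 3 allow.

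The difference of rc_AA943304_g_at exceeded the spread of its replicates, which was among the smallest on the array type (0.61% of tested probe sets on type B had a like or smaller one), and the moderated SE in limma is larger than that spread alone would give. Another probe set from the same source sequence, rc_AA943304_at, did not show it: 173.4, 560 and 521.5 in Dahl S kidneys and 390.1, 436.9 and 327.7 in congenic kidneys (+0.05, SE 0.40). Dahl S sample 1 stood far below the others there. Without that sample the difference was -0.50, and with only congenic sample 2 left out it was -0.049, so its direction depends on single samples.

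Fxyd1 encodes phospholemman, the FXYD protein of heart, skeletal muscle and smooth muscle. Its tested probe set, rc_AA799645_at, read 200.7, 204.5 and 232.5 in Dahl S kidneys and 249.4, 215.4 and 196.5 in congenic kidneys. The ranges of the strains overlapped almost wholly (+0.05, SE 0.18, 95% interval -0.36 to +0.46, exact permutation p = 0.7). The other Fxyd1 probe sets, rc_AA799645_g_at at 3.4 to 6.9 and rc_AI009344_i_at at 2.8 to 42.4, were not tested, with 5 or 6 of the 6 samples under the filter level of their type. Of 8 striated muscle markers 2 passed the filter, Myh6 (-0.63) and Myl2 (+0.07), neither past the test, and the creatine kinase Ckm and the skeletal actin Acta1 reached at most 36.3 and 20.3. Of 7 smooth muscle markers 4 were tested, with a summed signal of 1007.9 to 1281.9 in Dahl S and 700.7 to 1022.9 in congenic samples, lowest in congenic sample 2. The congenic mean was lower in 3 of these 4. Acta2, the smooth muscle actin, had an unadjusted limma p under 0.05 (-0.67, SE 0.27, adjusted p = 0.9997). Its other tested probe sets gave -0.20, -0.52 and -0.22, none with an unadjusted limma p under 0.05. In Tagln (-0.38, SE 0.17) all congenic values were below all Dahl S values, as in 3.49% of all tested probe sets. In either direction the share without overlap was 7.08%. The part of muscle cells in the Fxyd1 values was not tested.

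Fxyd2 encodes the gamma subunit of the pump, abundant in the proximal tubule, thick ascending limb and distal convoluted tubule. X70062_at read 703.1, 933.3 and 938.1 in Dahl S kidneys and 701.2, 892.3 and 951.2 in congenic kidneys. Samples of the same number nearly coincided, with congenic minus Dahl S differences of -0.004, -0.06 and +0.02 log2 units for numbers 1, 2 and 3. The strain difference was -0.016 (SE 0.18, 95% interval -0.43 to +0.40, exact permutation p = 0.9). As a ratio the interval runs from 0.744 to 1.32.

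Fxyd4 encodes CHIF, a FXYD protein of the collecting duct that is induced by corticosteroids and raises the affinity of the pump for sodium. L41254_at read 332.4, 351.8 and 363 in Dahl S kidneys and 304, 409.7 and 373.2 in congenic kidneys. The Dahl S values lay within the congenic range (+0.04, SE 0.17, 95% interval -0.34 to +0.43, exact permutation p = 0.8). Markers of the collecting duct had a summed signal of 3449.6 to 3798.4 in Dahl S and 3727.9 to 4499.2 in congenic samples over 8 of 9 listed genes. Congenic sample 2 was the highest in this sum and in Fxyd4. Of these markers Slc14a2, Slc26a4, Avpr2 and Slc4a1 (1557.3) were also highest in congenic sample 2. Aqp2 was highest in congenic sample 1 (697.5), Aqp3 and Scnn1b in congenic sample 3 and Scnn1g in Dahl S sample 3. The strains did not overlap in 1 of the 8, Aqp2, against 7.08% of all tested probe sets. The congenic mean was higher in 6 of these 8, with the smallest p for the urea transporter Slc14a2 (+0.44) and for Slc26a4 (+0.27), and 0 had an unadjusted p under 0.05 in limma. Their part in the Fxyd4 values was not tested.

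**Figure D3:**
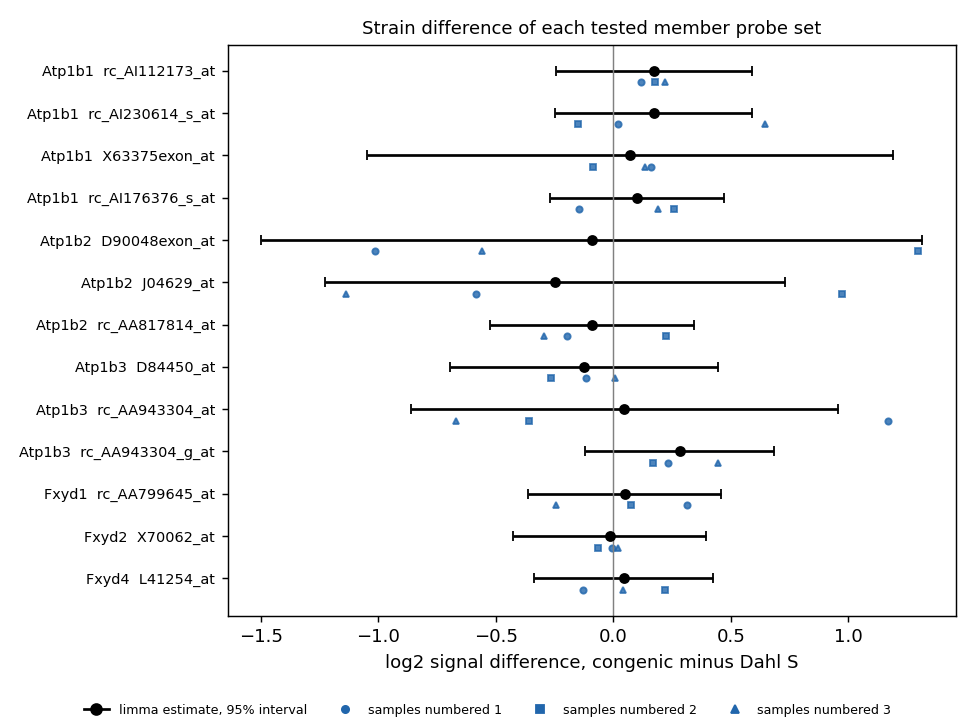
Log2 difference in signal, congenic minus Dahl S, for each of the 13 probe sets (black, limma estimate with 95% interval, n = 3 per strain) and for each sample number (blue shapes). Every interval spans 0, and the estimates run from -0.25 to +0.28.

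Several members differed by sample number in the same way in both strains. In 5 of the 13 probe sets both samples numbered 1 were below the other 4 samples (38.5%), against 14.2% of all tested probe sets. They were rc_AI112173_at of Atp1b1, rc_AA817814_at of Atp1b2, D84450_at of Atp1b3, X70062_at of Fxyd2 and L41254_at of Fxyd4. The other samples exceeded those numbered 1 by 1.34-fold, 1.24-fold, 1.48-fold, 1.32-fold and 1.18-fold in this order. In 1 of the 13 (7.69%), X63375exon_at of Atp1b1, both samples numbered 1 were above the rest, against 15.2% of all tested probe sets.

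Bright probe sets differed from dim ones by sample number in these arrays. Among tested probe sets with a mean signal of 200 or more, 23% had both samples numbered 1 below the rest and 11.2% above, and among those under 200 the shares were 9.03% and 17.5%. Of the 13 member probe sets 11 were above 200, and the same 5 of them (45.5%) had both samples numbered 1 below. Under quantile normalization and under median scaling, both chosen after seeing the data, these 5 stayed below. With quantile normalization the share below was 38.5% of tested members, against 16.9% of all tested probe sets. At a mean signal of 200 or more it was 45.5% of members, against 17.6% of all tested. For number 1 minus the rest, the median over all tested probe sets was +0.0091 log2 units on the deposited scale and -0.27 after median scaling, where 8 member probe sets were below (61.5%), against 32.5% of all tested. Among probe sets with a mean signal of 200 or more, median scaling put 49.6% of all tested and 8 of 11 members (72.7%) below. No test was made of the sample number, since the labels do not say what it marks.

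**Figure D4:**
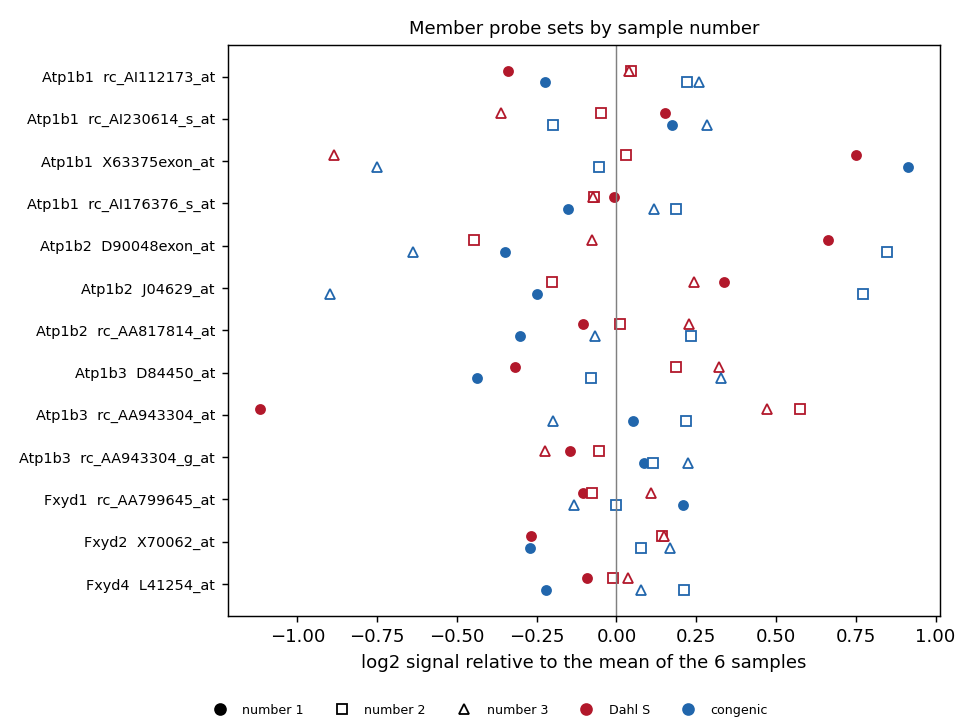
Log2 signal of each sample relative to the mean of the 6 samples, for the 13 probe sets (red, Dahl S; blue, congenic; filled circles, samples numbered 1). The filled circles lie on the left in 5 probe sets, for instance X70062_at, and on the right in X63375exon_at.

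For each member the genes whose log2 signal followed it most closely over the 6 samples were named by Pearson correlation, as a description. Atp1b1 (rc_AI112173_at) was followed by Sparc, a matrix protein (r = 0.997, Spearman rho = 1), and by Crp (r = 0.996). Fxyd2 was followed by Snrnp70, a splicing protein (r = 0.995), and by Rpl19l4 (r = 0.995), and Fxyd4 by Kdr, a VEGF receptor (r = 0.989), and by St3gal2, a sialyltransferase (r = 0.986). Of 11941 named probe sets 285 had an r above 0.9 with Atp1b1 (2.39%), 429 with Fxyd2 (3.59%) and 165 with Fxyd4 (1.38%). Sparc read 2483.4 and 3057 in the samples numbered 1 and 4855.1 to 6740 in the rest, so this likeness follows the sample number. Atp1b2 (rc_AA817814_at) was nearest to Tmem30b (r = 0.986) and Ctbp1 (r = 0.985), Atp1b3 (rc_AA943304_g_at) to Ube2b and Snap23 (r = 0.989 for both) and Fxyd1 to Ubap1 (r = 0.987) and Fam135a (r = 0.983). All points come from the same 6 samples.

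The rest of the pump family was mostly dim. Of 12 listed genes, 9 were on the arrays and 4 were tested, 1 higher and 3 lower in the congenic kidneys, with a median of -0.03 against -0.0065 over 8168 genes, and 0 passed in limma, adjusted or unadjusted. Fxyd7, a regulator best known from brain, read 149.2, 260.9 and 272.8 in Dahl S kidneys and 149.9, 262.1 and 258.5 in congenic kidneys. Same-numbered samples again lay close together, with the samples numbered 1 lowest (-0.02, SE 0.33). Fxyd6, the neighbour of Fxyd2, read 452.3, 423.8 and 375.5 against 442.8, 461.7 and 322 (-0.04, SE 0.18). The 2 with the smallest p were the gastric proton pump subunit Atp4a (+0.13, SE 0.26) and Atp1b4 (-0.14, SE 0.38), and neither passed. Highest signals of 11.8 for Atp1a4, 31.5 for Fxyd3, 29.9 for Fxyd5, 12.3 for Atp4b and 23.9 for Atp12a came from probe sets under the filter.

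Genes that act with the pump were taken from lists. Of 15 tested genes that regulate the pump or its trafficking, 10 were higher and 5 lower (median +0.05), and 0 passed at an adjusted p of 0.05. The 1 with an unadjusted p under 0.05 in limma was Stk39, the kinase SPAK, which read 38, 33.5 and 72.1 in Dahl S kidneys and 262.3, 53.5 and 162.3 in congenic kidneys (+1.54, SE 0.58, limma adjusted p = 0.9997). Its 2 other tested probe sets gave -0.41 and +0.42, so 1 of them had the opposite sign and the other a smaller difference of the same sign. The aldosterone-induced kinase Sgk1 read 297.1, 278.3 and 238.8 against 439.2, 241.7 and 573.3 (+0.54, SE 0.30), with congenic sample 2 inside the Dahl S range.

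Sodium that enters tubule cells through other transporters and channels is the substrate of the pump. Of 12 tested sodium transporters and channels, most of them apical, 4 were higher and 8 lower (median -0.05), with 0 at an unadjusted p under 0.05 in limma. The smallest p belonged to Slc8a1, the basolateral sodium-calcium exchanger (-0.34, SE 0.24), and Slc34a1, the phosphate cotransporter (+0.12, SE 0.18). The other tested Slc34a1 probe sets gave -0.012, -0.003, +0.11 and +0.002, and those of Slc8a1 -0.59 and -0.17. Both samples numbered 1 were below the rest in 4 of these 12 genes and above in 2. Of 9 tested potassium, chloride and bicarbonate transporters that work beside the pump 8 were higher and 1 lower (median +0.14), and the strains did not overlap in 2 of the 9 (Slc4a4 and Kcnj1), against 7.08% of all tested probe sets. Slc4a4, the basolateral bicarbonate cotransporter, read 1768.6, 1930.2 and 1371.4 in Dahl S kidneys and 2866.3, 2529.4 and 2640.9 in congenic kidneys. It was the 1 gene of this list with an unadjusted limma p under 0.05 (+0.68, SE 0.17, limma adjusted p = 0.9997). The other tested Slc4a4 probe sets gave +0.50 (SE 0.25) and +0.69 (SE 0.49), neither with an unadjusted limma p under 0.05. Kcnj1, the apical potassium channel ROMK, read 603.9, 731.5 and 744.3 against 755.2, 846.1 and 881.6 (+0.26, SE 0.15), and its 2 other probe sets gave +0.15 and -0.08.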

How the data were processed

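Signals were measured in 3 Dahl S and 3 congenic kidney samples on 3 array types. The authors' deposited values are intensity values on a linear scale, 1 per probe set. From the values, each array's mean after trimming 2% at each end was alike within a type (150.1 to 150.2). The sources used here name no software that made them. Groups and sample numbers came from the titles.

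Values under the 10th percentile of a type (3.1, 6.8 and 4.9 on A, B and C) were raised to it and log2 was taken of the deposited intensities. Control probe sets (59 per type) were dropped, and probe sets whose mean log2 signal was under the 40th percentile (21.2, 39.3 and 37.7) were not tested. The test was that of limma 3.58.1 under R 4.3.3 (lmFit, eBayes with an intensity trend, 1 fit per type), with a Benjamini-Hochberg adjustment over all 15721 tested probe sets, also for the members. The fit was tested on simulated data. A gene of a list was represented by its probe set of highest mean log2 signal. By the platform annotation 18178 probe sets had 1 gene symbol, 391 had several and 7633 had none. Chromosomes and promoters came from RefSeq (GRCr8).

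The members and lists were chosen with earlier results of these data known. Named genes were all members, list genes with an unadjusted p under 0.05 or else the 2 with the smallest p, and the 2 genes most like each member. Fxyd6, Fxyd7, Sgk1, Cubn, Slc22a6, Tagln, the untested pump family genes and Umod, Aqp2, Ckm and Acta1 were named after their values were seen. So were Avpr2, Slc4a1, Aqp3, Scnn1b and Scnn1g of the collecting duct list. Alternatives covered the floor, filter, scaling, variance moderation, sample number, each sample left out, adjustment and threshold. Figures used matplotlib 3.10.9 in Python 3.11.15.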

Additional observations from a re-analysis of the deposited data

How the results depend on the processing

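Under each alternative run limma called 0 probe sets, members included, also at an adjusted p of 0.1 and with each sample left out in turn (0 to 0 called). The 13 member differences gave 220 values under the alternatives, 22 of them with the opposite sign and 0 past the threshold. The replicate numbers were not shown to pair the samples: deviations from the strain means correlated at 0.45, 0.077 and 0.18 for numbers 1, 2 and 3. For samples of unlike number the correlations ran from -0.30 to +0.15. Since each strain was centred on its own mean, the correlations of like and unlike numbers are not independent of each other. With the number as a replicate block 0 probe sets were called and 819 had an unadjusted p under 0.05, against 704 with a term for the samples numbered 1 and 391 in the main comparison. That number was 798 without a filter on dim probe sets, where rc_AA943304_g_at of Atp1b3 had an unadjusted limma p of 0.0278 and an adjusted p of 1, and 259 with the stricter filter; the cause was not tested.

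Signs turned under quantile normalization for rc_AI112173_at of Atp1b1 (-0.0095), under median scaling for Fxyd2 (+0.0072), and without both samples numbered 1 for D90048exon_at of Atp1b2 (+0.37), rc_AA943304_at of Atp1b3 (-0.51) and Fxyd1 (-0.084). With each sample left out the ranges that crossed 0 were -0.37 to +0.46 for X63375exon_at, -0.54 to +0.21 for D90048exon_at, -0.70 to +0.14 for J04629_at, -0.23 to +0.039 for rc_AA817814_at, -0.32 to +0.061 for D84450_at, -0.50 to +0.35 for rc_AA943304_at, -0.044 to +0.13 for Fxyd1, -0.15 to +0.12 for Fxyd2 and -0.051 to +0.16 for Fxyd4; the cause was not tested. The mean of the Atp1b3 probe sets was +0.068, against +0.28 for the brightest.

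For number 1 minus the rest, quantile normalization turned D90048exon_at (-0.30), J04629_at (-0.056) and rc_AA943304_g_at (+0.051). Median scaling turned rc_AI230614_s_at (-0.056), D90048exon_at (-0.066), J04629_at (-0.23) and Fxyd1 (-0.22), and it put 8 rather than 5 member probe sets with both samples numbered 1 below the rest. The widest interval of a member was that of D90048exon_at, the member nearest the filter level.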

Other observations

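Some transport and tubule genes outside the pump family also differed by sample number in both strains. The potassium channel Kcnj16 read 362.2 and 382 in the samples numbered 1 and 217.5 to 238.3 in the other 4, and Egf, made in the distal nephron, read 1246.1 and 1085.6 against 447.8 to 744.9. The thiazide-sensitive cotransporter Slc12a3 ran the other way, at 574 and 480.5 in the samples numbered 1 and 755.2 to 1003.7 in the rest. Of 10 proximal tubule markers 5 had both samples numbered 1 below the rest and 0 above, against 23% and 11.2% of all tested probe sets with a mean signal of 200 or more. These genes were chosen after their values were seen.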
